A study of Mus musculus with 8 samples.

Results

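The genes described here mark GABAergic interneurons, the local inhibitory nerve cells of the forebrain, and were chosen by name as 10 genes: Gad1, Gad2, Slc32a1, Sst, Npy, Cck, Vip, Pvalb, Calb2 and Htr3a. All 10 were on the array, where 12 probe sets carried one of these symbols and no other, out of 22626 probe sets that are not controls. Gad1 and Slc32a1 had 2 probe sets each and the other genes 1 each. Gene expression was measured in the hippocampus of the right hemisphere with 1 Affymetrix array per animal, in 4 mutant mice and 4 normal mice. Mutants carried 2 mps copies of Gusb (mps/mps) and normals carried 1 mps copy beside the wild-type allele (mps/+), both on B6.C-H2-Kbm1/ByBir. The normal mice are thus carriers, and no animal without the mps allele is analysed here. The mps allele inactivates beta-glucuronidase, a lysosomal enzyme, and its homozygotes model mucopolysaccharidosis VII (MPS VII). Mutants were a female of 38.3 weeks, 2 males of 25.6 weeks and a female of 19.6 weeks (mutants 1 to 4), and normals were a female of 38.3, a male of 25.6, a male of 19.6 and a female of 14.6 weeks (normals 1 to 4). Values are log2 expression per probe set as deposited, so that a difference of 1 is a factor of 2, and each array is a different animal.

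GABA is made from glutamate by glutamate decarboxylase, of which Gad1 encodes the larger form (GAD67) and Gad2 the smaller, synapse-enriched form (GAD65). Slc32a1 encodes the transporter that loads GABA and glycine into synaptic vesicles, so these genes mark inhibitory neurons of every kind, including the projection neurons of the striatum and the thalamic reticular nucleus. The other 7 genes mark subtypes. Sst, Npy, Cck and Vip encode secreted neuropeptides, Pvalb and Calb2 encode the calcium-binding proteins parvalbumin and calretinin, and Htr3a encodes a subunit of the ion channel opened by serotonin. Several are not confined to interneurons: Cck is also made by excitatory neurons, and calretinin by neurons of the midline thalamus and by mossy cells of the mouse dentate gyrus.

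The promoters of the synthesis and loading genes, whose means were all lower in mutants, are shown beside those of Sst and Vip, the peptide genes with the narrowest and the widest range over the 8 arrays. RefSeq's promoter table (GRCm38.p6) held 9 promoters for 8 of the 10 genes, each from 250 bases before to 50 after the start site, and Calb2 and Htr3a were not matched. The windows, on the plus strand except for Sst, are Gad1 chr2:70561879-70562178, Gad2 chr2:22622077-22622376, Slc32a1 chr2:158610508-158610807, Sst chr16:23890795-23891094 (minus strand) and Vip chr10:5638968-5639267. Capitals mark matches on either strand to the cAMP response element TGACGTCA, its 5-base core TGACG, the TATA box TATAAA and the homeodomain core TAATTA.
Gad1: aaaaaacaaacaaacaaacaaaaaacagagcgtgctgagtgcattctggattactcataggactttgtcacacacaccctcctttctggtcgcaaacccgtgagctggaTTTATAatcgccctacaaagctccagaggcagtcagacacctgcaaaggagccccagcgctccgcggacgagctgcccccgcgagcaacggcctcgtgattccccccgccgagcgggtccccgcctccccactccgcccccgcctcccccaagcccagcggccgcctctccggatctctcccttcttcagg
Gad2: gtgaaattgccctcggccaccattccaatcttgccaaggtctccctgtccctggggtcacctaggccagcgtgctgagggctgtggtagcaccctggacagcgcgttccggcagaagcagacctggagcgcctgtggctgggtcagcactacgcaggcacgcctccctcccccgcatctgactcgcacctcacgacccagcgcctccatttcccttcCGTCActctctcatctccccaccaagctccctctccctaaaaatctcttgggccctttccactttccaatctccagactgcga
Slc32a1: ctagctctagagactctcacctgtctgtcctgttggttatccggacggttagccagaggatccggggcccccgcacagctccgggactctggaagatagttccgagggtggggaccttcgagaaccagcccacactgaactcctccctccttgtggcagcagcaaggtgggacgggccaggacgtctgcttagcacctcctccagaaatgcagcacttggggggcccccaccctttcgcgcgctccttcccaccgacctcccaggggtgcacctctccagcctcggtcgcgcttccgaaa
Sst: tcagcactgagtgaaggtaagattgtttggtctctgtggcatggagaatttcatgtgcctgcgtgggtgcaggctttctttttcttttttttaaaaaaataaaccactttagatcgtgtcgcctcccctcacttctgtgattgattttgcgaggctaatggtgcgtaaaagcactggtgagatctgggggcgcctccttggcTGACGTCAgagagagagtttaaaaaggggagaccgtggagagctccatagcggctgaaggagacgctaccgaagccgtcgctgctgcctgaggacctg
Vip: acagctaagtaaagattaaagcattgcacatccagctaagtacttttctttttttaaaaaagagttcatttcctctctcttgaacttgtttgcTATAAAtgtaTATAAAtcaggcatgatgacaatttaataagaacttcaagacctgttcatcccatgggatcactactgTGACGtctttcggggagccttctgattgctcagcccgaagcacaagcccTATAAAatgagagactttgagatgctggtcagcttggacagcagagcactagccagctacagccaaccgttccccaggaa
The full cAMP response element stood only in the Sst window among the 9, at position -48 from the start site, and 1.79% of 32851 promoters hold it. The core stood in 4 of the 9 windows (Gad2, Sst, Cck and Vip) against 20.8% of all promoters, and every full element also holds the core on both strands. The TATA box letters stood in the Vip window at -30, -147 and -157 and reversed in the Gad1 window at -141, against 13.6% of all promoters. The homeodomain core was in 0 of the 9 windows and in 5.29% of all promoters. The Slc32a1 window held none of these letters. Their GC content was 60%, 61.3% and 63.3% for Gad1, Gad2 and Slc32a1, 50.3% for Sst and 41.7% for Vip, beside a median of 52.7% over all promoters. These are descriptions of letters in a fixed window and say nothing of binding.

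The arrays differed in ways that touch these genes. Of the 2 Gusb probe sets, the second had 4.51, 4.71, 4.36 and 4.62 in mutants 1 to 4, against 6.56, 5.40, 5.83 and 6.02 in normals 1 to 4, with no overlap, while the one with the higher mean overlapped between the groups (5.55 to 6.59 in mutants, 5.12 to 6.40 in normals). All arrays are labelled hippocampus, but the mean of 8 striatal genes was 6.09 to 6.83 in mutants, against 9.69, 6.68, 9.60 and 8.74 in normals 1 to 4. The mean of 10 thalamic and habenular genes was 8.10, 9.75, 6.66 and 9.58 in mutants 1 to 4, against 8.41, 9.38, 7.89 and 6.75 in normals 1 to 4. Over 9 hippocampal field genes the mean spanned 6.47 to 7.96 among mutants and 6.57 to 7.21 among normals, and of these Prox1, a marker of dentate granule cells, lay at or below the highest absent bacterial control (3.72) in mutant 1 and normals 2, 3 and 4. Mutant 3 had the highest hippocampal field mean. Normal 1 differed in RNA quality, whose actin and Gapdh control probe sets stood on average 3.58 higher at the 3 prime than at the 5 prime end, a gap of 0.30 to 0.75 in mutants and 0.22 to 0.35 in normals 2 to 4. All 10 genes exceeded the absent controls on every array. In whole tissue, fewer cells of a type and less RNA per cell cannot be told apart.

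Mean levels of the genes for GABA synthesis and vesicle loading were lower in mutants on all 5 probe sets, though none passed the test over all probe sets; 52.9% of all probe sets had a lower mean in mutants. The mean was lower by at least a log2 value of 0.5 on 4 of the 5, beside 4.27% of all probe sets. It was lower by at least 1 on 2 of them (Gad2 and Slc32a1), beside 0.804%. The 5 probe sets are of only 3 genes, whose main probe sets had a median range over the 8 arrays of 1.96, beside 0.76 over all probe sets. Among the subtype markers, Npy (-0.81) and Vip (-1.36) were also lower by at least 0.5. Cck (0.65), Pvalb (0.53) and Calb2 (1.11) were higher by at least 0.5. Gad2 had 7.11, 6.04, 7.46 and 6.79 in mutants 1 to 4, against 6.30, 8.27, 8.28 and 9.10 in normals 1 to 4. Mutants lay below normals 2, 3 and 4, and normal 1, the array with the 3 prime shift, lay within the mutant range. The mean was 6.85 ± 0.60 in mutants and 7.99 ± 1.19 in normals (SD, n = 4 each), a log2 change of -1.14 (95% interval -2.44 to 0.17) with an adjusted p of 0.872 in limma. Without normal 1 the Gad2 change was -1.70, with an adjusted p of 0.204 in limma. Without normal 4, the highest Gad2 array, it was -0.77, with an adjusted p of 0.955 in limma. Leaving out normal 1 brought Slc32a1 from -1.01 to -0.87 and Gad1 from -0.52 to -0.48 on their main probe sets.

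Slc32a1, the vesicular transporter gene, had 9.22, 7.89, 7.94 and 8.54 in mutants 1 to 4, against 9.84, 9.16, 9.17 and 9.47 in normals 1 to 4. The groups met only where mutant 1 exceeded normals 2 and 3 by less than 0.1. Its mean was 8.40 ± 0.62 in mutants and 9.41 ± 0.32 in normals (SD, n = 4 each), 2.02-fold lower, with a change of -1.01 ± 0.31 (SE, 95% interval -1.72 to -0.31, unadjusted p = 0.0104, adjusted p = 0.651 in limma). This was the smallest p of the 12 probe sets. The second, dimmer Slc32a1 probe set lay between 4.54 and 5.21 in mutants and between 5.07 and 5.15 in normals, with a change of -0.26, so that the probe sets differed in size but not in sign.

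Gad1 had 10.57, 10.20, 10.74 and 10.60 in mutants 1 to 4, against 11.15, 10.46, 11.07 and 11.51 in normals 1 to 4, and only normal 2 lay within the mutant range. The change was -0.52 ± 0.23 (SE, 95% interval -1.03 to -0.0021, unadjusted p = 0.0493, adjusted p = 0.837 in limma). Its second probe set had 9.34, 8.07, 9.77 and 9.16 in mutants 1 to 4, against 9.51, 9.40, 10.42 and 10.98 in normals 1 to 4, and a change of -0.99 (adjusted p = 0.846 in limma). Mutant 2 was lowest and normal 4 highest on both Gad1 probe sets and on Gad2. Exact permutation of the 8 arrays between the groups (70 arrangements, two-sided) gave p = 0.0857 for Slc32a1 and 0.114 for Gad1 and Gad2 on their main probe sets, where the smallest possible is 0.0286.

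**Figure D1:**
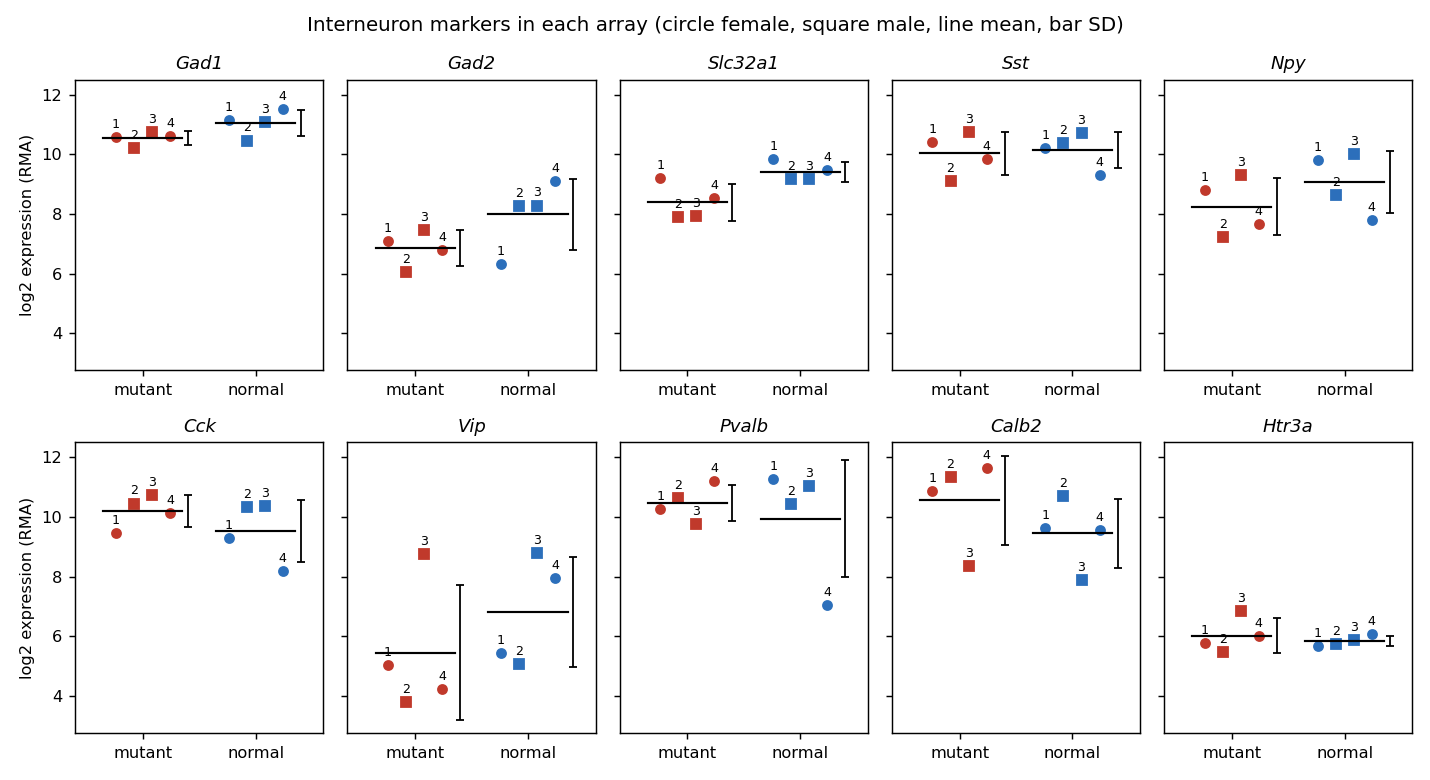
Log2 expression of the 10 genes (vertical axis, 1 probe set per gene, the one with the highest mean) in each array, mutants left of normals, numbered 1 to 4, with circles for females, squares for males, a line at the group mean and a bar of 1 SD. Gad2 is lower in all 4 mutants than in normals 2, 3 and 4, and Vip splits into high and low arrays in both groups.

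The striatal mean was also lower in mutants than in normals 1, 3 and 4. Its part in the difference of the synthesis and loading genes was not tested. In normals 1 to 4 the striatal mean was 9.69, 6.68, 9.60 and 8.74, and Gad2 was at 6.30, 8.27, 8.28 and 9.10. Normal 1 is the array with the 3 prime shift. The striatal mean of normal 2, 6.68, lay within the mutant range, which makes it the one normal array with striatal markers as low as those of mutants. In that array Gad2 was at 8.27, above all 4 mutants, Slc32a1 at 9.16, above 3 of 4, and Gad1 at 10.46, below 3 of 4. With the striatal list mean as a covariate the Gad1 change was -0.06 ± 0.32 and the Slc32a1 change -0.57 ± 0.48 (SE). The Gad2 change was -1.87 ± 0.91 (SE), and each of these had an adjusted p of 1.00 in limma. Without the covariate the SEs were smaller, at 0.23 for Gad1, 0.31 for Slc32a1 and 0.57 for Gad2. No fit joined this covariate with leaving out normal 1. Averaged over the main probe sets of the 3 genes, mutants lay at 8.97, 8.04, 8.71 and 8.64 and normals at 9.10, 9.29, 9.51 and 10.03. On this average each mutant was below each normal, a description of a score over chosen genes that carries no test.

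For each peptide gene, the range within either group was wider than the difference between the group means. Sst, the gene of somatostatin, which marks dendrite-targeting interneurons, had 10.42, 9.12, 10.75 and 9.84 in mutants 1 to 4, against 10.22, 10.38, 10.72 and 9.30 in normals 1 to 4. Group means were 10.03 ± 0.72 in mutants and 10.15 ± 0.61 in normals (SD, n = 4 each), a change of -0.12 (95% interval -1.05 to 0.81, limma adjusted p = 0.983). Npy, the gene of neuropeptide Y, had 8.81, 7.22, 9.29 and 7.67 in mutants 1 to 4, against 9.80, 8.64, 10.001 and 7.78 in normals 1 to 4. Its change was -0.81 (95% interval -2.20 to 0.58, limma adjusted p = 0.914). Sst and Npy shared their low arrays: mutants 2 and 4 and normal 4 were the lowest 3 of the 8 for each. Mutant 3 and normal 3 held the highest values of Sst, and normals 3 and 1 those of Npy.

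Cck, the gene of cholecystokinin, found in basket cells and in excitatory neurons, had 9.47, 10.45, 10.74 and 10.12 in mutants 1 to 4, against 9.29, 10.33, 10.37 and 8.17 in normals 1 to 4. Normal 4 was lowest, and the change of 0.65 (95% interval -0.50 to 1.81, limma adjusted p = 0.919) dropped to 0.20 without it. Vip, the gene of vasoactive intestinal peptide, which marks interneurons that inhibit other interneurons, had 5.02, 3.81, 8.75 and 4.24 in mutants 1 to 4, against 5.43, 5.07, 8.80 and 7.95 in normals 1 to 4. It was high in mutant 3 and normals 3 and 4 and low in the other 5 arrays, with nothing between 5.43 and 7.95. Its range of 4.998 over the 8 arrays was the widest of the 12 probe sets, and the group difference of -1.36 (95% interval -4.18 to 1.46, limma adjusted p = 0.923) was smaller than the SD within either group (2.25 in mutants, 1.84 in normals).

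The calcium-binding protein genes and Htr3a had higher means in mutants, and their groups overlapped. Calb2 had 10.88, 11.35, 8.36 and 11.64 in mutants 1 to 4, against 9.63, 10.70, 7.90 and 9.57 in normals 1 to 4. The change was 1.11 (95% interval -0.73 to 2.95, limma adjusted p = 0.910), and mutant 3 and normal 3 were the lowest. Pvalb, which marks fast-spiking basket and chandelier cells, had 10.27, 10.63, 9.77 and 11.21 in mutants 1 to 4, against 11.26, 10.43, 11.05 and 7.04 in normals 1 to 4. Normal 4, the youngest animal, stood far below the next lowest normal, and the change of 0.53 (95% interval -1.48 to 2.53, limma adjusted p = 0.955) turned to -0.44 without it. Htr3a, which marks interneurons that arise in the caudal ganglionic eminence, had 5.76, 5.46, 6.85 and 6.002 in mutants 1 to 4, against 5.66, 5.75, 5.86 and 6.08 in normals 1 to 4. Its change was 0.18 (95% interval -0.45 to 0.81, limma adjusted p = 0.952) and -0.10 without mutant 3, the highest array.

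**Figure D2:**
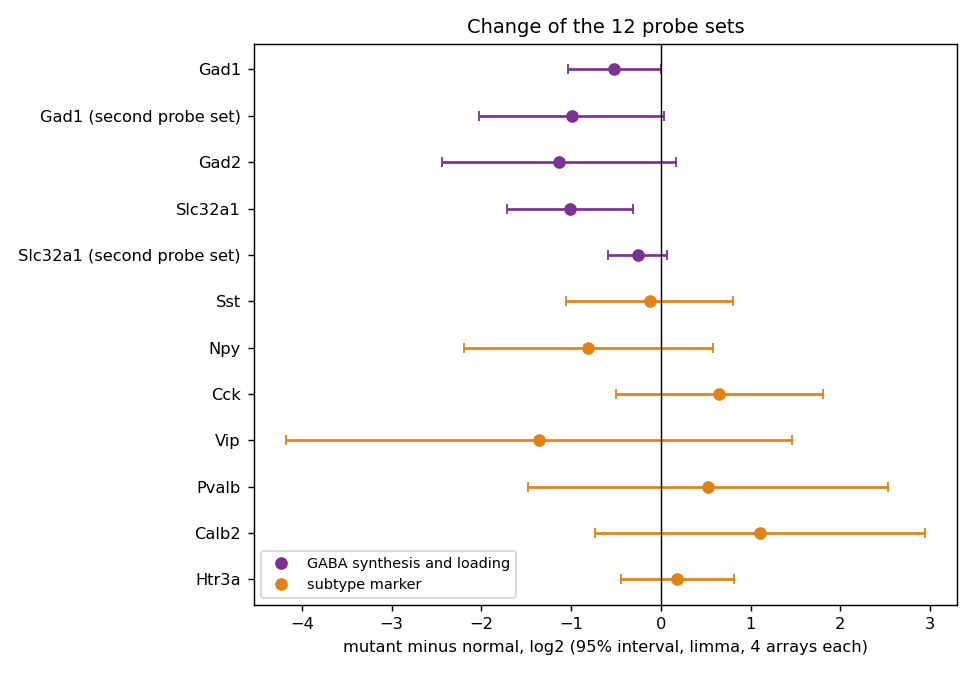
Mutant minus normal log2 change (horizontal axis) of the 12 probe sets with its 95% interval from limma, 4 arrays per group, with GABA synthesis and loading genes above and subtype markers below. The 5 synthesis and loading probe sets lie left of 0, and the 7 subtype markers lie on both sides with wider intervals in most.

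Set beside each other, the synthesis and loading genes had a median change of -1.01 over 3 genes and the subtype markers a median of 0.18 over 7 genes, with 3 of the 7 lower and 4 higher in mutants. The median over all probe sets was -0.01. The distance between the 2 medians was -1.19 as reported, -0.36 without normal 4 and -0.63 with the striatal list mean as a covariate. No test was made of this distance, since the genes were chosen with earlier results of these data known. Past an adjusted p of 0.05 in limma were 0 of the 12 probe sets, beside 0.0884% of all probe sets (18 higher, or 0.0796%, and 2 lower, or 0.00884%). At an unadjusted p under 0.05, 2 of the 12 were lower in mutants (Slc32a1 and Gad1) and 0 higher, beside 5.95% of all probe sets in either direction and 2.81% lower. The groups overlapped on all 12 probe sets, while they did not overlap on 3.56% of all probe sets (1.75% with mutants lower). By exact permutation the smallest p among the 12 was 0.0857.

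The spread between animals was wide. The difference between the highest and the lowest array reached a log2 value of 2 for 7 of the 12 probe sets and of 3 for 4 of them, beside 7.73% and 1.99% of all probe sets. The median of this range was 1.96 for the 3 synthesis and loading genes and 2.78 for the 7 subtype markers, beside 0.76 over all probe sets. The subtype markers did not vary as 1 block. Calb2 was highest in mutants 4 and 2, where the thalamic and habenular mean was 9.58 and 9.75, and lowest in normal 3 and mutant 3, where it was 7.89 and 6.66, while normal 4, with a thalamic mean of 6.75, had Calb2 at 9.57. Vip was high in mutant 3 and normals 3 and 4, whose forebrain excitatory mean (5 genes, among them Neurod6 and Tbr1) was 7.80, 7.53 and 6.51, against 4.55 to 6.15 in the other 5 arrays. Neurod6 lay below the highest absent control (3.72) in normal 1 and mutants 2 and 4, where Tbr1 lay near it. Mutant 1 had Neurod6 at 6.41 and Vip at 5.02, against 6.86 and 7.95 in normal 4. Pvalb was lowest in normal 4, whose thalamic mean of 6.75 was the lowest among normals, yet Pvalb was 9.77 in mutant 3 at a thalamic mean of 6.66. The all-neuron mean of 13 genes spanned only 9.90 to 10.24 in mutants and 9.81 to 10.20 in normals. The part of regional content in these patterns was not tested.

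**Figure D3:**
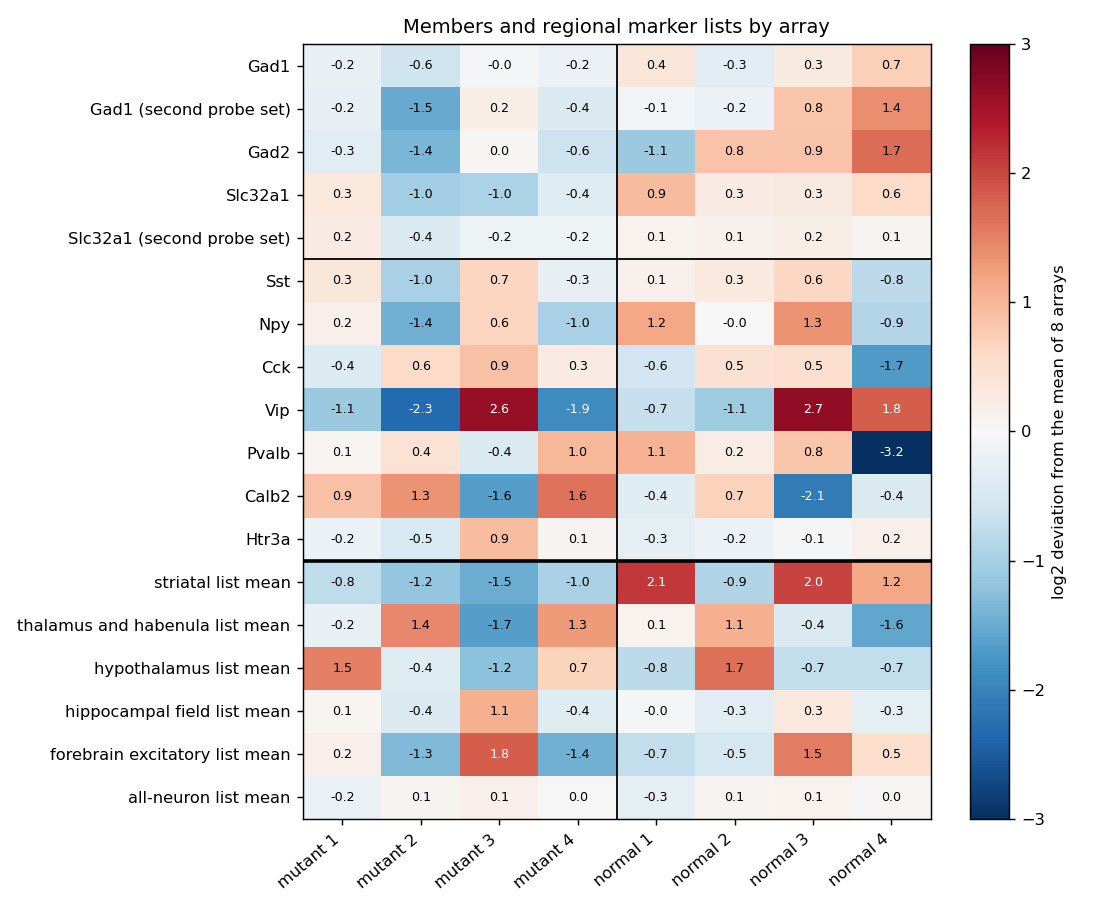
Deviation of each probe set (upper rows) and of each marker list mean (lower rows) from its own mean over the 8 arrays, in log2 units, with mutants in the left columns and normals in the right. Striatal markers are high in normals 1, 3 and 4 alone, and Vip follows mutant 3 and normals 3 and 4 in both groups.

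Other genes of inhibitory neurons gave 0 calls past the adjusted threshold in limma. A list of 16 genes, interneuron transcription factors and Adarb2, which encodes a protein related to RNA-editing deaminases, had 12 on the array. Of these 3 had an unadjusted p under 0.05, all lower in mutants (Dlx5, Dlx6 and Adarb2), beside 2.81% of all probe sets lower at that p (list median -0.35). Adarb2, which is named after its values were seen, was dim, at 3.5001 to 3.73 in mutants and 3.58 to 4.30 in normals, near the highest absent control. Dlx5, a homeobox factor of forebrain inhibitory neurons, had 6.22, 4.80, 5.50 and 5.12 in mutants 1 to 4, against 7.27, 6.19, 6.99 and 7.15 in normals 1 to 4 (change -1.49, limma adjusted p = 0.3835). Its relative Dlx6 had 3.29 to 3.57 in mutants, all below the highest absent control, against 3.95 to 4.85 in normals. Dlx genes are also expressed by striatal neurons, and the part of striatal content was not tested. Normal 2 had the lowest Dlx5 of the normals, while Dlx6 was lowest in normal 4. Dlx1 and Dlx2 were at 7.77 and 6.97 in normal 2, exceeded among normals only by normal 4 (8.42 and 7.17). Of 22 further interneuron genes 15 were measured, with 12 means lower and 3 higher, 0 past the threshold and 3 at an unadjusted p under 0.05, all lower, against the same 2.81% (median -0.25). Tac1, the gene of substance P, which striatal neurons also express, was at 8.68 to 10.73 in mutants and 10.26 to 11.87 in normals, and Gria4, a glutamate receptor subunit gene, at 4.14 to 4.65 in mutants and 4.48 to 5.64 in normals. Lamp5, the remaining gene of these 3, was at 6.57 to 10.03 in mutants and 8.20 to 10.80 in normals (change -1.92). It is named after its values were seen.

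Receptors for the peptides showed no called change. All 12 receptor genes for somatostatin, neuropeptide Y, cholecystokinin and vasoactive intestinal peptide were on the array, with 5 means higher and 7 lower, 0 past the threshold and 0 at an unadjusted p under 0.05 in limma (median -0.10). The somatostatin receptor genes Sstr1 (4.15 ± 0.08 in mutants, 3.84 ± 0.29 in normals) and Sstr5 (4.39 ± 0.27 in mutants, 4.69 ± 0.09 in normals, SD, n = 4 each) had the smallest p. Of 7 genes for GABA uptake and breakdown only 3 were measured, with 0 past the threshold and 0 at an unadjusted p under 0.05 in limma. Abat, which encodes the transaminase that degrades GABA, averaged 10.68 ± 0.45 in mutants and 10.81 ± 0.42 in normals (SD, n = 4 each), and Glul, the glutamine synthetase gene of astrocytes, 11.02 ± 0.08 in mutants and 10.91 ± 0.40 in normals.

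The striatal list fell short of the threshold too, though its differences were the largest of the regional lists: all 8 measured genes had lower means in mutants and 7 had an unadjusted p under 0.05, with a median of -2.30. Penk, the enkephalin precursor gene, was at 9.05, 7.24, 7.64 and 8.06 in mutants 1 to 4, against 12.44, 8.95, 12.13 and 11.82 in normals 1 to 4, and Pdyn, the dynorphin precursor gene, at 4.22 to 5.41 in mutants and 5.32 to 7.34 in normals. Of the remaining regional and neuronal lists, 0 genes passed or had an unadjusted p under 0.05 in thalamus and habenula (Ntng1 at 0.93, Slc17a6 at 0.79), hypothalamus (Hdc at 0.54, and Sim1, which was below the highest absent control on all 8 arrays), hippocampal fields (Pou3f1 at -1.34, Prox1 at 0.92), forebrain excitatory neurons (Camk2a at -0.62, Nrgn at -1.08) and all neurons (Syp at 0.72, Stmn2 at 0.32), all values being log2 changes of the pair with the smallest p. Among glial and choroid plexus lists, the astrocyte filament gene Gfap (2.27, limma adjusted p = 0.0152) and the phagocyte gene Cd68 (2.08, adjusted p = 0.0367) rose. The changes of Aqp4 (0.76), Trem2 (1.52), Cnp (-0.84), Mag (-0.82), Otx2 (1.30) and Folr1 (2.02) did not pass.

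Males and females of both genotypes were compared with genotype as a term. None of the 12 probe sets passed (lowest adjusted p = 1.00 in limma), beside 0.0354% of all probe sets, and 2 had an unadjusted p under 0.05, beside 2.45%. Cck was at 10.45 and 10.74 in mutant males and 10.33 and 10.37 in normal males, against 9.47 and 10.12 in mutant females and 9.29 and 8.17 in normal females, so that each male exceeded each female, as on 1.75% of all probe sets in either direction (difference 1.21, unadjusted p = 0.0047). Slc32a1 was at 7.89 and 7.94 in mutant males and 9.16 and 9.17 in normal males, against 9.22 and 8.54 in mutant females and 9.84 and 9.47 in normal females (difference -0.73, unadjusted p = 0.0059). Whether the genotype difference differs by sex was tested with an interaction term across 4 cells of 2 animals. None of the 12 passed (lowest adjusted p = 0.633 in limma), and 0 had an unadjusted p under 0.05, beside 0% past the threshold and 10.5% at an unadjusted p under 0.05 of all probe sets.

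For each gene the other genes with the most similar profile over the 8 arrays were found among probe sets with a mean of at least 6 and an SD of at least 0.3. Pearson's r is given as a description with no p, since each is the highest of 5774 and the 8 arrays share regional content. Gad1 was followed most closely by Spred1 (0.98), Nap1l1 (0.96) and Map7 (0.95), and Gad2 by Tmem9b (0.96), Gdpd1 (0.96) and Pdxdc1 (0.95). Slc32a1 went with Myh7 (0.95), Sh3gl3 (0.92) and Cldn11 (0.91), the last a gene of oligodendrocyte tight junctions. None of the 3 synthesis and loading genes was among the closest for another. Sst went with Acta1 (0.92), Id2 (0.90) and Pdlim7 (0.89), and Npy with Nrgn (0.95), Spry2 (0.94) and Hpca (0.92). Nrgn and Hpca encode calcium-signalling proteins of forebrain neurons. Cck went with Mgst3 (0.96), Fkbp1b (0.94) and Fabp3 (0.93). Vip went with Purb (0.97), Klf16 (0.97) and Sorl1 (0.97). Without the 2 arrays farthest from the Vip median, normal 3 and mutant 3, these held at 0.98, 0.94 and 0.94. Normal 4 was then the only high Vip array left.

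Calb2 went with Ache, the acetylcholinesterase gene (0.98), Itih3 (0.98) and Tspan33 (0.98), and these held at 0.95, 0.94 and 0.99 without the 2 arrays farthest from the Calb2 median. Pvalb went with Tpm2 (0.98), Arl3 (0.97) and Lin37 (0.96), and without its 2 farthest arrays, normal 4 among them, these were 0.81, 0.40 and 0.23, so the last 2 rest on those arrays. Htr3a went with Fgf13 (0.95), Mrtfa (0.95) and Gprin1 (0.94), of which Mrtfa was at 0.39 without the 2 farthest.

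Over 27 alternative settings (26 for Cck) none of the main probe sets passed an adjusted p of 0.05 in limma. The sign of the change held in all 27 for Gad2 (-1.997 to -0.71) and Slc32a1 (-1.29 to -0.56) and in 26 for Gad1 (-0.76 to 0.07). For Slc32a1 the unadjusted p was under 0.05 in 21 of the 27 settings, all 8 that left out 1 array among them, but not with the striatal list mean as a covariate (0.2754). For Gad1 it was under 0.05 in 12 of the 27, and in only 2 of the 8 that left out 1 array. For Gad2 it was under 0.05 in 7 of the 27, and in only 1 of the 8 that left out 1 array.

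**Figure D4:**
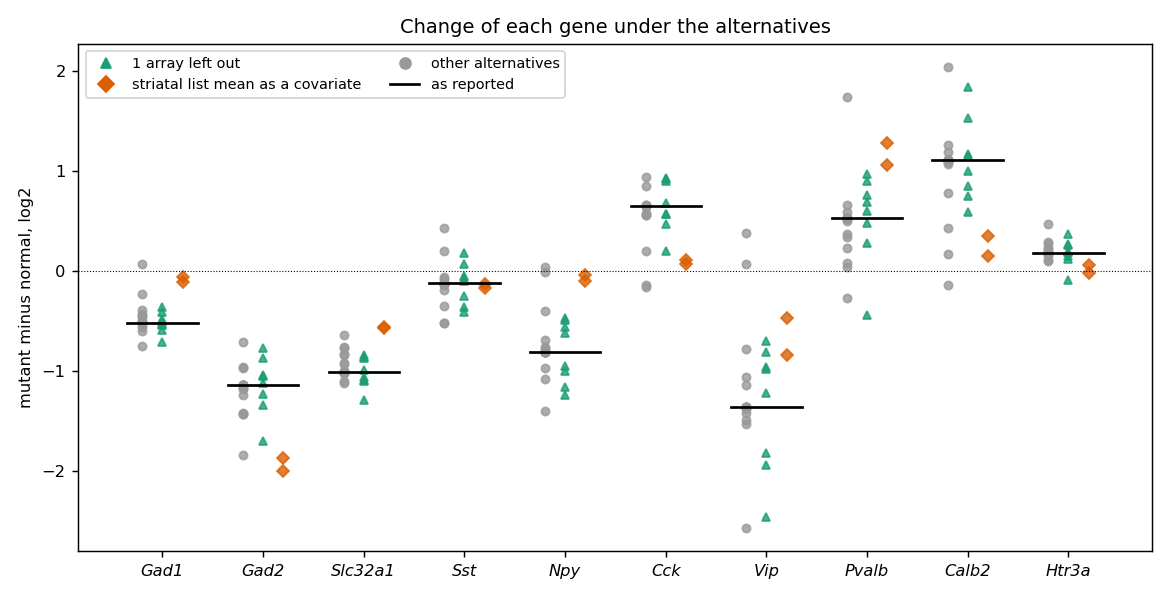
Mutant minus normal log2 change of each gene (vertical axis) as reported (black line) and under each alternative, with triangles for fits that left out 1 array and diamonds for fits with the striatal list mean as a covariate, alone or with the thalamic one. Gad2 and Slc32a1 stay below 0 throughout, Gad1 comes near 0 with the striatal covariate, and Sst, Pvalb and Htr3a cross 0 when 1 array is left out.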

How the data were processed

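Each of the 8 arrays has 1 log2 value per probe set, deposited by the authors, and RMA and GCOS 1.4 are the tools named per the submitters' processing notes. A genome build for the arrays is not given in the sources used here. Scanner files were not analysed here. Of 22690 probe sets, 64 controls were left out, and 20380 of the other 22626 carried 1 gene symbol in the platform annotation, of which 20351 matched the GRCm38.p6 gene table by identifier. For a gene with several probe sets, the one with the highest mean over 8 arrays is its main probe set. The median log2 value of an array ran from 6.09 to 6.17, and precision is limited by the 4 animals per group.

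Mutants and normals were compared over all 22626 probe sets with limma 3.58.1 in R 4.3.3 (lmFit, eBayes), with Benjamini-Hochberg adjustment over all of them and a threshold of 0.05. Sex (genotype as a term) and the interaction were fitted the same way, and single genes were also compared by exact permutation. Nothing in the labels pairs the animals. On simulated data for mutant against normal arrays over 22626 probe sets, 69% of 100 changes of log2 size 1 and 83% of 100 of size 2 were recovered, with 12 false calls. The simulated noise was drawn for each probe set on its own, without the regional differences that probe sets share on the real arrays. Recovery with such shared differences, or at the wider spread of the genes described here, was not tested. Their median range over the 8 arrays was 1.96 (synthesis and loading genes) and 2.78 (subtype markers), beside 0.76 over all probe sets.

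The genes and the 14 other lists were chosen with earlier results of these data known. Named are all member probe sets, Gusb, the 2 genes with the smallest p of each other list, and the 3 most similar profiles per gene. Neurod6, Tbr1, Adarb2, Lamp5, Dlx1 and Dlx2 were added after their values were seen. Alternatives were the choice of probe set, dim or multi-target probe sets, quantile normalization or median centring again, eBayes settings, array weights, covariates (sex, age, list means), same age as a random block, and arrays left out. Figures were drawn with matplotlib 3.10.9.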

Additional observations from a re-analysis of the deposited data

How the results depend on the processing

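The count of member probe sets past the threshold in limma was 0 in every alternative run for genotype, sex and their interaction, leaving out each array included. For genotype, 2 were lower at an unadjusted p under 0.05 as reported, 6 lower and 1 higher with array weights, and 0 with the striatal list mean or without mutants 2 and 4. The median change of Gad1, Gad2 and Slc32a1 ran from -1.23 to -0.77 when 1 array was left out, and was -0.57 with the striatal list mean as a covariate and -0.56 with the striatal and thalamic means. The subtype median ran from -0.41 to 0.37 over the fits without 1 array. The distance between both medians ran from -1.49 to -0.36 without 1 array, and was -0.54 with the striatal and thalamic means and -0.50 without normals 1 and 4. Directions turned for Gad1 (0.0696), Cck (-0.14), Vip (0.38) and Calb2 (-0.14) without normals 1, 3 and 4, where the lone normal is assumed to vary like mutants. They also turned for Sst (0.19) and Npy (0.0347) without normals 1 and 3, for Sst (0.43) and Vip (0.0710) without mutants 2 and 4, for Cck (-0.16) and Pvalb (-0.27) without normals 1 and 4, and for Htr3a (-0.0195) with the striatal and thalamic means. Leaving out 1 array gave -0.41 to 0.18 for Sst, -0.44 to 0.96 for Pvalb and -0.10 to 0.37 for Htr3a. The causes were not tested.

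Over all probe sets, 18 rose and 2 fell. The rises numbered 50 with array weights, 7 with sex, 10 with age, 8 with the all-neuron mean, 0 with the striatal mean and 2 with the striatal and thalamic means as covariates. They numbered 6 without normals 1 and 3, 0 without normals 1, 3 and 4, 5 without mutants 2 and 4 and 10 without normals 1 and 4. The falls numbered 10 with array weights, 1 with 1 probe set per gene, without multi-target probe sets or with the thalamic mean, 3 with the mean of all probe sets, and 0 with sex, age, the striatal mean, the striatal and thalamic means or the all-neuron mean and in each fit without a pair or trio of arrays. Leaving out 1 array gave 6 to 15 rises and 0 to 12 falls, the 12 without normal 2. Signal was limited for Sim1, Dlx6, Adarb2, Prox1, Sstr1, Camk2a, Neurod6 and Tbr1, and for Vip in mutant 2. These lay near or below the highest absent control on some or all arrays. No paired analysis was possible because the labels state no pairs or litters and give no shared replicate numbers, and a random block for equal age also left the member count at 0.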
